A study of Mus musculus with 2 samples.

Results

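EGR1 is a zinc finger transcription factor that is switched on within minutes by growth factors, injury and, in neurons, by synaptic activity. Outside the nervous system, mostly in fibroblasts, vascular cells, macrophages and tumour lines, it has long been described as a regulator of a small set of genes. The 9 taken here are the growth factors Pdgfa, Pdgfb, Vegfa, Fgf2 and Tgfb1, the clotting initiator F3, the matrix protein gene Fn1, the adhesion receptor gene Icam1 and the tumour suppressor Trp53. The question was how these classical targets look in an EGR1 ChIP-seq of brain. A peak was given to a gene when its centre lay in the gene body or within 10 kb of any annotated transcription start site (TSS), which uses no measured value. By this rule 9 of the 12014 EGR1 peaks belonged to 5 of the 9 genes.

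ChIP-seq sequences the DNA fragments recovered with an antibody to a protein, here EGR1, and was performed on frontal cortex of C57BL6N/129SvEv F1 hybrid male mice aged 6 weeks, with cortices of several mice pooled for each ChIP. The deposited list holds the peaks of 2 merged ChIP replicates, each with its position on mm10 and its irreproducible discovery rate (IDR). The IDR is small for a peak that stands high in the ranking of both replicates, and it was at most 2%. Input DNA of the same tissue, strain and age served as the other sample, and no file of it was analysed here. The list gives no read count, so the depth behind a peak is unknown. It gives no value for either replicate alone, so there is no error on a peak and no test was made. The tissue was bulk cortex, in which EGR1 bound in a few cells cannot be told apart from EGR1 bound weakly in many, and a peak list holds no RNA with which to check cell type markers. A gene without a peak is one at which no peak passed this threshold at an unknown depth, which does not show that EGR1 was absent.

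EGR1 binds a GC-rich element of 9 bases, GCGTGGGCG or GCGGGGGCG. Exact copies were searched on both strands in the window of each gene (the gene body and 10 kb around each TSS), and 8 were found in 5 of the 9 windows. They are shown, with flanks to 29 bases, because 7 of them lay in no peak. Each line gives the strand of the element, 5′ to 3′, read from the C57BL/6J reference (GRCm38.p6, RefSeq, the same build as mm10), with the element in capitals.
Vegfa intron 1, in a peak (chr17:46031077-46031085, plus strand): ggcagggcccGCGTGGGCGgcgagacgat
Tgfb1 promoter (chr7:25686880-25686888, minus strand): cttcatcttaGCGTGGGCGggctccaagg
Tgfb1 intron 1 (chr7:25689518-25689526, minus strand): cttgggtcccGCGTGGGCGcctacagggc
Tgfb1 3′UTR (chr7:25704982-25704990, minus strand): tgcgggcgggGCGGGGGCGgggccgggcc
Pdgfb intron 1 (chr15:80010786-80010794, plus strand): agggggcgggGCGGGGGCGgggttcattg
Pdgfb 5′UTR (chr15:80014051-80014059, minus strand): aaccctggccGCGGGGGCGgcgcgctccg
Icam1 upstream (chr9:21015335-21015343, plus strand): aaccgaggccGCGGGGGCGggagcagtcg
Fgf2 5′UTR (chr3:37348606-37348614, plus strand): ggcgcgcgggGCGGGGGCGcacggggccg

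GCGTGGGCG made up 3 of these elements and GCGGGGGCG the other 5. Across the assembled chromosomes, 2150 of 7559 exact elements (28.4%) lay in an EGR1 peak, and of those within 1 kb of a protein-coding TSS 1656 of 3626 (45.7%) did. At the 9 genes 1 of 8 (12.5%) did, and 1 of the 6 within 1 kb of the gene's own TSS. Both counts are small, and they are given as a description of these loci.

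Of the 21938 protein-coding genes on assembled chromosomes, 8688 (39.6%) had a peak by the same rule, against 5 of the 9 classical targets (55.6%). With the peak centre within 1 kb of a TSS the numbers were 6165 genes (28.1%) against 4 of 9 (44.4%). With 9 genes, 1 gene is worth 11.1 percentage points, so both counts lie within about 1 or 2 genes of the share of all genes. The genes with a peak were Pdgfb with 5 peaks and Vegfa, Pdgfa, F3 and Tgfb1 with 1 each. Trp53, Fn1, Icam1 and Fgf2 had 0. The gene map shows that all peaks other than that of Tgfb1 sat in the first 3 kb of the gene or just before it.

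**Figure D1:**
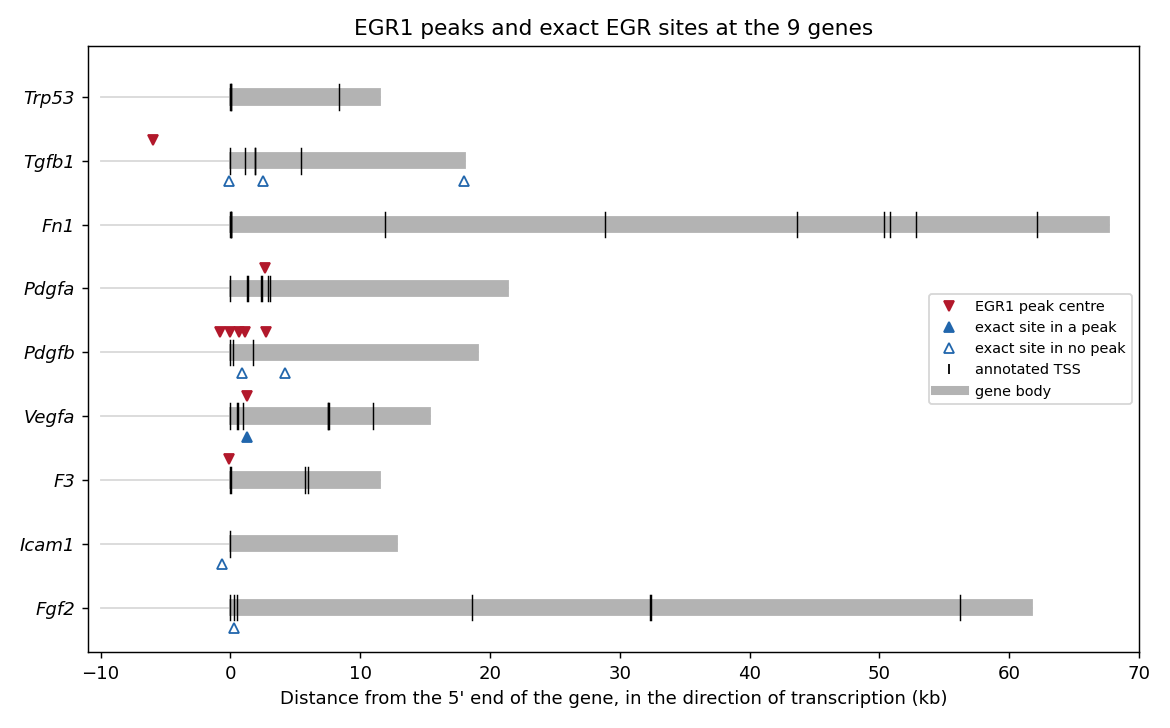
Position of EGR1 peak centres (red, above each line) and of exact EGR elements (blue, below) at the 9 genes, as the distance in kb from the gene's 5′ end in the direction of transcription, with gene bodies in grey and annotated TSSs as black ticks. Filled blue triangles lie in a peak (1, at Vegfa) and open ones do not (7), and Pdgfb carries 5 of the 9 peaks.

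The 9 peaks were 139 to 264 bp wide, with a median of 250 bp. Ranked by IDR from the lowest, 2 stood near the top of the list. These were a Pdgfb peak at rank 769 of 12014 (IDR 8.12e-08, percentile 6.40) and the Vegfa peak at rank 926 (IDR 1e-07, percentile 7.71). The other Pdgfb peaks ranked at percentiles 41.9, 50.8, 55.2 and 80.0. F3 (IDR 0.0085, percentile 86.2), Pdgfa (IDR 0.0119, percentile 91.3) and Tgfb1 (IDR 0.0178, percentile 98.0) had the highest IDRs of the 9. The median IDR of the 9 peaks was 0.000613, against 0.000321 over all peaks, and their median percentile was 55.2. That middle value rests on Pdgfb, and without this gene the median percentile of the remaining 4 peaks was 88.7. Thus 2 genes, Pdgfb and Vegfa, had a peak near the top of the list, and the peaks of the 3 others ranked low. The high Pdgfb peak was nearer to the TSS of an antisense gene, Gm41361 (84 bp), than to a Pdgfb TSS (956 bp). The next Pdgfb peak stood at percentile 41.9.

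**Figure D2:**
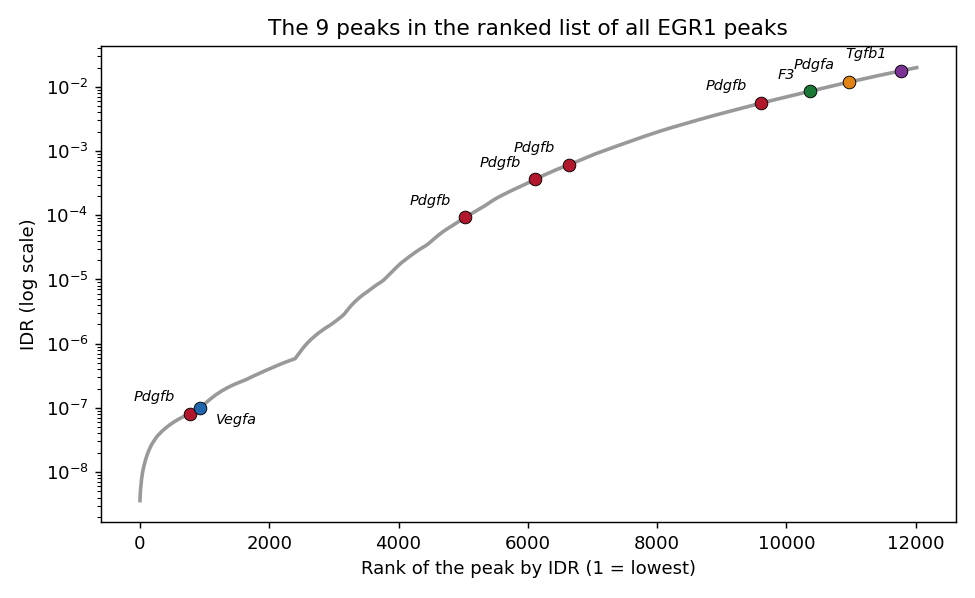
IDR of every EGR1 peak (grey line, log scale) against its rank, with the 9 peaks at the classical targets as labelled points. A Pdgfb peak and the Vegfa peak lie at ranks 769 and 926, and the F3, Pdgfa and Tgfb1 peaks at ranks 10357, 10965 and 11770.

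Pdgfb encodes the B chain of platelet-derived growth factor, a mitogen for pericytes and smooth muscle that in brain is made by endothelial cells and neurons. The gene lies on the minus strand at chr15:79995874-80014977 with 3 annotated TSSs. Its 5 peaks spanned 3711 bp around the start of the gene, and all had their centre within 1 kb of one of the TSSs. Of the 21938 protein-coding genes, 176 (0.802%) had 5 or more peaks by the 10 kb rule and 7 (0.0319%) had 5 or more within 1 kb of a TSS. Pdgfb was one of these 7, which needs all 5 of its peaks, including 1 centred 956 bp from the nearest Pdgfb TSS.

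In the direction of transcription, the first Pdgfb peak (chr15:80015631-80015888, IDR 0.000362) was centred 782.5 bp upstream of the 5′-most TSS. The next (chr15:80014882-80015131, IDR 9.24e-05) overlapped that TSS, with its centre 29.5 bp upstream. The third (chr15:80014215-80014478, IDR 0.00559) lay in the 5′UTR of exon 1. The following peak (chr15:80013749-80014012, IDR 0.000613) was centred in intron 1 and reached into the coding start of exon 1. The last (chr15:80012178-80012316, IDR 8.12e-08) lay deeper in intron 1, 2730 bp from the 5′ end of the gene. It was both the narrowest of the 5, at 139 bp, and the one with the lowest IDR. Its centre was 956 bp downstream of the nearest Pdgfb TSS and 84 bp from the TSS of Gm41361, a noncoding antisense gene, so this peak can be read as belonging to either. The neighbouring centres were 466 to 1633.5 bp apart.

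**Figure D3:**
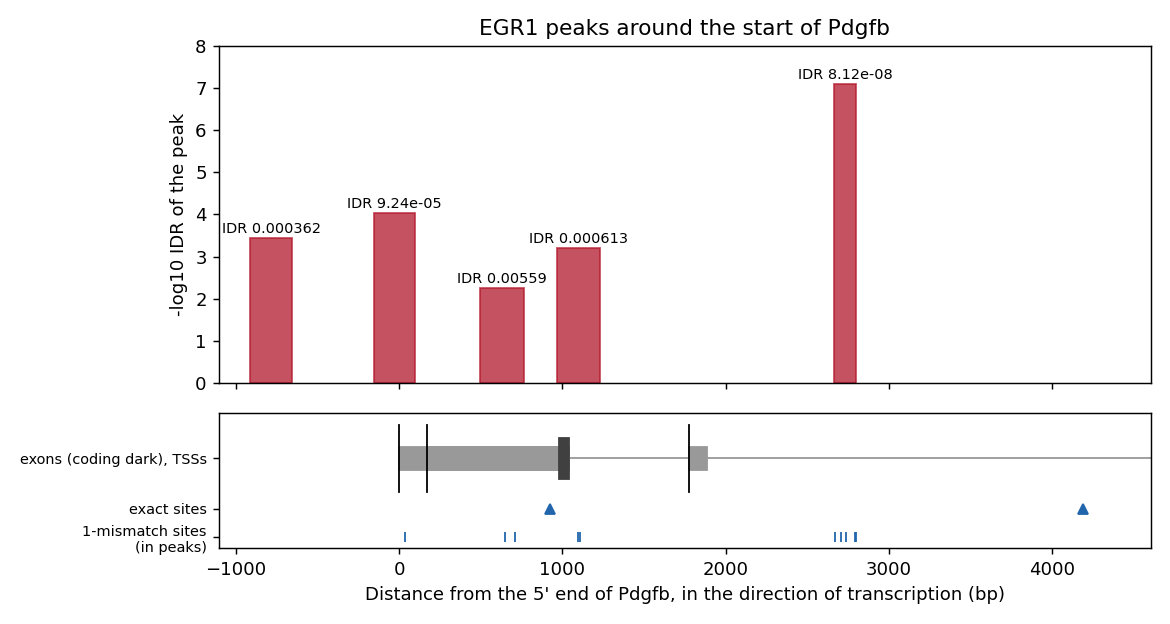
Upper panel, −log10 of the IDR of the 5 EGR1 peaks at Pdgfb, each bar as wide as its peak, against the distance in bp from the 5′ end of the gene in the direction of transcription. Lower panel, exons (coding part dark), annotated TSSs, exact EGR elements (triangles) and elements with 1 mismatch inside the peaks (ticks), with 5 of the 10 ticks under the intron 1 peak of IDR 8.12e-08.

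None of the 5 Pdgfb peaks held an exact element. The copy in the 5′UTR lay 174.5 bp from the nearest peak centre, between the third and the fourth peak, and fell inside a peak only when peaks were widened by 50 bp to each side. The copy in intron 1 lay 1457 bp from the nearest centre. Copies with 1 mismatch were more frequent, with 5 in the intron 1 peak of lowest IDR, 2 in each of the peaks in the 5′UTR and at the exon 1 boundary, 1 in the TSS peak and 0 in the upstream peak. For the peak of lowest IDR, 4 of the 5 are printed in 29 bases each, since a RefSeq transcript model covers this peak with untranslated exon. A substitution names the base of the element, its position counted from 1 at the 5′ end of the element, and the base found in its place.
Pdgfb C8G (chr15:80012178-80012186): cccacctgttGCGTGGGGGcgggcacctg
Pdgfb C8T (chr15:80012237-80012245): ctgtgtgcgtGCGTGGGTGtgtgagcgca
Pdgfb G6C (chr15:80012270-80012278): tactcgggccGCGTGCGCGtgtgtcccgc
Pdgfb G6C (chr15:80012307-80012315): gggcgtggcgGCGGGCGCGcgacctggcc

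The fourth Pdgfb peak is printed without its 14 untranslated bases, plus strand of mm10, because it holds a pair of such elements near its centre, C2A and C8G, shown in capitals. It also holds TGACTCA, a form of the AP-1 element TGANTCA.
Pdgfb peak at the exon 1 boundary (chr15:80013749-80013998): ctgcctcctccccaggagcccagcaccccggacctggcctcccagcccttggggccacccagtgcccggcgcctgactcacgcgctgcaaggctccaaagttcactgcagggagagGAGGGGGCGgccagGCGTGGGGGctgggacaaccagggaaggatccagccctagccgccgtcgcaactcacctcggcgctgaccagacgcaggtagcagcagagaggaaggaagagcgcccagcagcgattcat

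The CpG content of the Pdgfb peaks changed across the gene start. The observed/expected CpG ratio, which is near 1 where CpG dinucleotides have not been lost, was 0.15 in the upstream peak with 3 CpGs and 0.37 in the TSS peak with 9 CpGs. It was 0.82 in the third peak, 0.53 in the fourth and 1.21 in the intron 1 peak of lowest IDR, which held 21 CpGs in 139 bp. Of all peaks, 0.729% had a ratio as high as this last one and 91.9% had a ratio as high as the upstream peak.

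Vegfa encodes the main growth factor for blood vessels, which is induced by hypoxia and in brain is made by astrocytes and neurons. It lies on the minus strand at chr17:46016993-46032369, and its only peak (chr17:46031024-46031200, IDR 1e-07) was in intron 1, centred 244 bp downstream of the nearest of 8 TSSs and 1257 bp from the 5′ end of the gene. It was the only one of the 9 peaks with an exact element, GCGTGGGCG, whose centre lay 31 bp from the peak centre. Over all peaks with an element the median of that distance was 23.5 bp. The peak had 74.6% GC, 23 CpGs and a CpG ratio of 0.94. The whole peak is printed, plus strand, with the element in capitals.
Vegfa peak (chr17:46031024-46031200): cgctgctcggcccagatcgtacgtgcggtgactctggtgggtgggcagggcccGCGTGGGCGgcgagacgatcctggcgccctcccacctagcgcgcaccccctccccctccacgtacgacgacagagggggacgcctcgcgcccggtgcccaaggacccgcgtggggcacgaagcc

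Pdgfa encodes the A chain of the same growth factor family, which drives oligodendrocyte precursors. It lies on the minus strand at chr5:138976014-138997370. Its peak (chr5:138994599-138994848, IDR 0.0119) was in the first coding exon, which is numbered 1, 2 or 3 depending on the transcript, 229.5 bp downstream of an internal TSS and 2646.5 bp from the 5′ end of the gene. It held no exact element and 2 with 1 mismatch, C8T and G3A, the latter at −0.5 bp from the peak centre. The peak is shown without untranslated bases, plus strand, with both in capitals.
Pdgfa peak (chr5:138994599-138994771): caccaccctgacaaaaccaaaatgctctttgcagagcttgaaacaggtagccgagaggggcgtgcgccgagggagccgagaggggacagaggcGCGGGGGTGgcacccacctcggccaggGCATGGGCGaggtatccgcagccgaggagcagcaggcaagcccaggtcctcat

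F3 encodes tissue factor, the membrane receptor that starts blood clotting and is made in brain mainly by astrocytes. It lies on the plus strand at chr3:121723537-121735048, and its peak (chr3:121723327-121723576, IDR 0.0085) overlapped its TSS, with the centre 85.5 bp upstream. The TSS of Gm43823, a gene model without experimental proof, was nearer still at 49.5 bp. The peak had 72.0% GC, 31 CpGs, the most of the 9, and a CpG ratio of 1.02. It held 2 elements with 1 mismatch, C2A at −3.5 bp from the peak centre and G5A, as well as 3 copies of the SP1 element GGGCGG. The TGANTCA element was present too, which was otherwise found only in the fourth Pdgfb peak among the 9. The part upstream of the untranslated exon is printed, plus strand, with the C2A copy in capitals.
F3 peak (chr3:121723327-121723536): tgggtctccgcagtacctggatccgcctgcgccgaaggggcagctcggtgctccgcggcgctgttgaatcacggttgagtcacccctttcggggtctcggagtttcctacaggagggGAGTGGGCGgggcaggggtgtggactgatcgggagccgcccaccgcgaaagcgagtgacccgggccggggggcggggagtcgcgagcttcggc

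Tgfb1 encodes the cytokine transforming growth factor beta 1, in brain mainly a product of microglia. It lies on the plus strand at chr7:25687002-25705077. Its peak (chr7:25680920-25681169, IDR 0.0178) was centred 5957.5 bp upstream of its TSS and 113.5 bp from the TSS of B9d2, a gene of the ciliary transition zone, so that the peak fell to Tgfb1 by distance only and was the farthest inside the 10 kb limit. It held neither an exact element nor one with 1 mismatch, though it had 3 copies of GGGCGG. The promoter of Tgfb1 itself overlapped no peak. In its window from 250 bp before to 50 bp after the TSS, the GC content was 77.0%, and the window held 1 exact element at −118 bp, 7 with 1 mismatch and 6 copies of GGGCGG. The nearest peak centre to this exact element was 5839.5 bp away. Of the 21938 promoter windows of this length, 940 (4.28%) held an exact element and Tgfb1 was the only classical target among them. Of these 940 windows 617 (65.6%) overlapped a peak, against 3019 of 20998 windows (14.4%) without an element. Of the 9 promoter windows those of Pdgfb and F3 overlapped a peak.

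The 4 genes without a peak differed in their sequence. Icam1, which encodes an adhesion receptor for leukocytes on endothelial cells (chr9:21015985-21028817, plus strand), had 1 exact element at −646 bp from its TSS and no peak within 16264.5 bp of that TSS. The nearest peak (chr9:21032113-21032386, IDR 6.96e-06) was 3432.5 bp beyond the 3′ end of Icam1 and 176.5 bp from the TSS of Icam5, a family member made by neurons of the forebrain. That peak held an exact element. Fgf2, a growth factor for neural progenitors and vessels that in adult brain is made by astrocytes (chr3:37348346-37410108, plus strand), had its exact element in the 5′UTR, at −43 bp from the nearest TSS, and no peak within 15137.5 bp of a TSS. Its nearest peak (chr3:37419547-37419810, IDR 2.15e-05) was 9570.5 bp past the end of the gene and 82.5 bp from the TSS of Nudt6, a gene transcribed in antisense to Fgf2. A further peak at the Nudt6 TSS had an IDR of 1.11e-06. At both loci, then, an EGR1 peak was present at the start of the neighbouring gene and none at the start of the classical target.

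Trp53, which encodes p53 (chr11:69580359-69591873, plus strand), and Fn1, which encodes fibronectin (chr1:71585520-71653200, minus strand), had no exact element in their windows of 28337 and 82130 bp. The nearest peak to a Trp53 TSS was 17342.5 bp away and 95.5 bp from the TSS of Atp1b2 (IDR 0.00151). That of Fn1 was 33746.5 bp away and 111.5 bp from the TSS of Atic (IDR 0.00101). The peak nearest to the limit of the rule from outside was one at 12026 bp from a Tgfb1 TSS, near the TSS of Tmem91 (IDR 2.6e-07), which held an exact element.

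Taking the 9 peaks as a group, 1 (Vegfa) held an exact element, against 1987 of 11938 peaks on assembled chromosomes (16.6%), 23.1% of the peaks within 1 kb of a coding TSS and 46.6% of the 10% of peaks with the lowest IDR. Of the classical targets' 2 peaks in that lowest 10%, Vegfa had an exact element and Pdgfb had not. Among peaks with an IDR above 0.005 the share was 7.09%, and the 4 peaks of this kind at Pdgfb, F3, Pdgfa and Tgfb1 had none. With 1 mismatch allowed, 7 of the 9 peaks held an element, against 69.8% of all peaks and 83.6% of those within 1 kb of a coding TSS. The 14 mismatched copies differed most often at position 8 (5 copies) or position 2 (4 copies), both of them the C of a CpG in the element. Pdgfb alone gave 5 of the 9 peaks and 10 of the 14 mismatched copies, so these group counts lean on 1 locus. GGGCGG can overlap the last bases of an EGR element followed by G. It was in 7 of 9 peaks, against 55.8% of all peaks and 75.1% of those within 1 kb of a coding TSS. It was also in 43.0% of all promoter windows, which are 300 bp long and include genes with and without a peak. TGANTCA was in 2 of 9, against 6.48% of all peaks, 3.04% of those within 1 kb of a coding TSS and 10.8% of the rest. The CRE element TGACGTCA was in 0 of 9, against 1.30% of all peaks and 1.99% of those within 1 kb of a coding TSS. These are matches of letters on the reference strain.

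The GC content of the 9 peaks was highest at Vegfa, with 74.6%. Their median was 69.7%, against 60.4% over all peaks and 66.3% over those within 1 kb of a coding TSS. The median CpG ratio was 0.82, against 0.60 and 0.78. Without Pdgfb, which gave 5 of the 9 peaks, the median ratio was 0.92. The peaks within 1 kb of a coding TSS had quartiles of 0.62 and 0.91 for this ratio. The Tgfb1 and Pdgfa peaks and the Pdgfb peak in the 5′UTR lay between them, 3 other Pdgfb peaks lay lower, and the Vegfa and F3 peaks and the Pdgfb peak of lowest IDR lay higher.

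**Figure D4:**
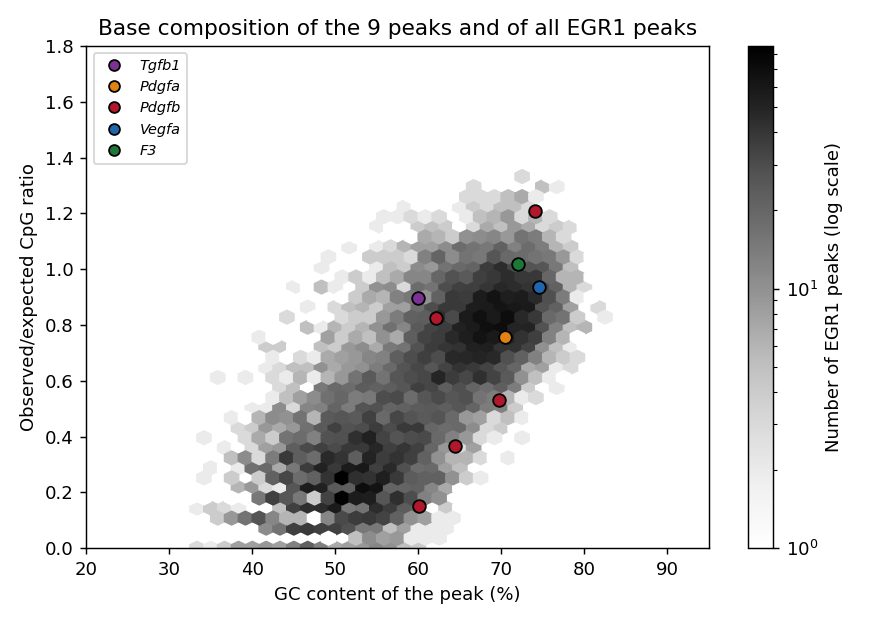
Observed/expected CpG ratio against GC content (%) of all EGR1 peaks (grey hexagons, number of peaks on a log scale) and of the 9 peaks at the classical targets (coloured points). The Pdgfb peaks run from a ratio of 0.15 to 1.21, while those of Vegfa, F3, Tgfb1 and Pdgfa lie between 0.76 and 1.02.

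Genes related to the classical targets were examined in 9 lists with 101 genes in all. A list of 22 further genes described as EGR1 targets was among them, and the others held genes that work with the classical targets. Of the 101 genes, 48 had a peak by the 10 kb rule (47.5%, against 39.6% of all coding genes) and 32 within 1 kb of a TSS (31.7%, against 28.1%). These totals include the 22 further targets, of which 14 (63.6%) had a peak and 9 (40.9%) within 1 kb. The partners of Pdgfa and Pdgfb, namely Pdgfc, Pdgfd and the receptor genes Pdgfra and Pdgfrb, had 0 peaks in 4 genes. The TGF-beta list stood highest, with 10 of 12 genes (83.3%) and 8 of 12 within 1 kb (66.7%). Its lowest IDRs near a TSS were at the receptor gene Tgfbr1 (IDR 6.12e-08) and at Smad4 (IDR 7.63e-08) and Smad2 (IDR 8.18e-08), which carry the signal to the nucleus. At each of these 3 genes the peak of lowest IDR lay within 324.5 bp of a TSS. The peak given to the ligand Tgfb1 (IDR 0.0178) lay 5957.5 bp from its start and 113.5 bp from the B9d2 TSS. Of the other ligands, Tgfb2 had 0 peaks and Tgfb3 had 1 (IDR 0.0144), not within 1 kb of a TSS. The receptor gene Tgfbr2 likewise had 1 peak (IDR 0.0144) and none within 1 kb.

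Over all coding genes, 39.6% had a peak by the 10 kb rule and 28.1% within 1 kb. The lists below are small, and their counts are a description. Among the partners of Vegfa, 4 of 9 genes (44.4%) had a peak and 2 (22.2%) within 1 kb. The 2 were the ligand Vegfb (IDR 1.16e-07) and the receptor gene Kdr (IDR 4.43e-05), both with an exact element in that peak. For Fgf2, 5 of 14 FGF ligands and receptors (35.7%) had a peak and 4 (28.6%) within 1 kb. The lowest IDRs near a TSS were at Fgfr2 (1.7e-06), Fgf9 (6.12e-06) and Fgf5 (1.83e-05). For the clotting and plasminogen partners of F3 the count was 5 of 14 (35.7%) and 2 (14.3%) within 1 kb. These 2 were the tissue plasminogen activator gene Plat (IDR 2.05e-07) and the inhibitor gene Tfpi2 (IDR 0.00148). F7 and F10 had the same lowest IDR (0.000354), so both can be called through 1 shared peak. Of the fibronectin receptor list 3 of 8 had a peak and 2 within 1 kb, at the integrin genes Itgb1 (IDR 8.46e-08) and Itgb8 (IDR 2.1e-07). Of the leukocyte adhesion list 2 of 10 (20.0%) had a peak and 1 (10.0%) within 1 kb, at Icam5. The other gene, Icam4, had the same lowest IDR as Icam5 (2.65e-06) and no peak within 1 kb. The peak of that IDR lay within Icam5, 1388.5 bp from its TSS, so the 2 genes can be called through 1 locus. Many genes of this list mark leukocytes and endothelium, and whether this bears on the count was not tested.

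Of the p53 list 8 of 14 genes (57.1%) had a peak and 5 (35.7%) within 1 kb, although Trp53 had none. The shares over all coding genes were 39.6% and 28.1%. The lowest IDRs near a TSS were at Cdkn1a (IDR 2.19e-07), an inhibitor of the cell cycle, at Mdm2 (IDR 3.65e-06), the ligase that degrades p53, and at Bax (IDR 3.4e-05), an activator of apoptosis. Of 22 further genes described as EGR1 targets outside the nervous system, 14 (63.6%) had a peak and 9 (40.9%) within 1 kb. Cdkn1a (IDR 2.19e-07) and the prostaglandin synthase gene Ptges (IDR 4.99e-07) had low IDRs near a TSS, neither of them with an exact element in that peak.

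**Figure D5:**
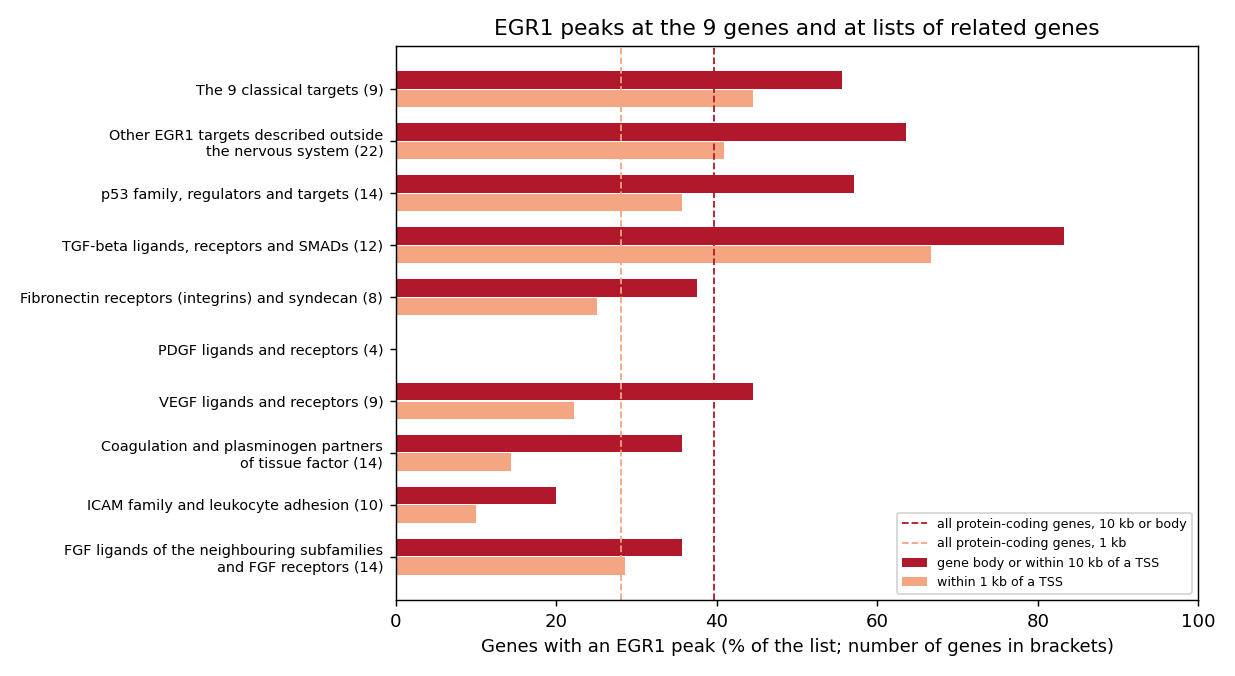
Share of genes (%) with an EGR1 peak in the gene body or within 10 kb of a TSS (dark bars) and within 1 kb of a TSS (light bars) for the 9 classical targets and the 9 lists of related genes, with the number of genes in brackets and the shares of all protein-coding genes (39.6% and 28.1%) as dashed lines. The TGF-beta list is highest at 83.3% and the PDGF list is at 0.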

How the data were processed

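EGR1 ChIP-seq of mouse frontal cortex was available as 1 peak list. After trimming, the authors aligned the reads of 2 replicates to mm10 (Bowtie), ran SPP as peak caller on each and kept peaks with an IDR of 2% or less, merged over the replicates. The submitters' processing notes also name cutadapt 11.2, Bowtie2 2.2.9 and bedtools 2.26.0. The deposited value of each peak is its IDR, which is read like a q-value, beside its position. The way positions are counted is not given in the sources used here. They were taken to follow the BED format and are given counted from 1.

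Peaks were assigned with GENCODE M21, and sequences were read from GRCm38.p6 for the 11938 peaks on assembled chromosomes (76 on scaffolds were left out). Motifs were searched on both strands. For printing, untranslated exon bases in GENCODE or RefSeq were removed. Python 3.11.15 with numpy 2.4.6 and matplotlib 3.10.9 was used, and the search and assignment were tested on simulated data. With 1 merged list there is no spread between replicates and no test.

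Genes named are the 9 targets, genes whose TSS is nearer to one of their peaks than their own, and the up to 3 genes of each list with the lowest IDR within 1 kb of a TSS, of which 1 is not reported here. Genes near peaks outside the rule were named after their values were seen. The same holds for Pdgfc, Pdgfd, Pdgfra, Pdgfrb, Tgfb2, Tgfb3, Tgfbr2, F7, F10 and Icam4. The 9 targets and the lists were chosen with earlier results of these data known.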

Additional observations from a re-analysis of the deposited data

How the results depend on the processing

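Each value was recomputed under other settings and is given here where it moved by over 1.5 times. Of 49 alternatives over 7 results, 34 stayed within that range. Counting peaks to 50 kb from a TSS gave 9 of 9 genes, 23 peaks and 3 peaks with an exact element, and by construction it takes in neighbouring genes, since 58.7% of all coding genes then had a peak. With an IDR of 0.1% or less, 2 genes (Pdgfb and Vegfa) and 5 peaks were left. The 10 kb rule then called 29% of all coding genes. At that IDR 2 genes had a peak within 1 kb and the median CpG ratio was 0.53. With the 50% of peaks of lowest IDR, 2 genes and 3 peaks were left, and the 10 kb rule called 25.8% of all coding genes. There, 2 genes had a peak within 1 kb and the median percentile was 7.71. The share of all coding genes within 1 kb was computed for neither setting, so these 1 kb counts stand without it. Both settings remove peaks by construction. Allowing 1 mismatch gave 7 peaks with an element and widening peaks by 50 bp gave 2, the second being the fourth Pdgfb peak. Without Pdgfb, a setting chosen after seeing the data, 4 peaks were left and the median percentile was 88.7. No replicate could be left out and no other peak caller could be compared, because the list is merged. No paired analysis was possible because the result comes from no test. The unknown depth limits what the absence of a peak says about Trp53, Fn1, Icam1 and Fgf2.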

Other observations

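Beyond the 10 kb limit, several of the 9 loci had peaks at the start of other genes. On the side of Fgf2 away from Nudt6, a peak 35592.5 bp from the nearest Fgf2 TSS lay 45.5 bp from the TSS of Cetn4, a centrin gene, with an IDR of 1.93e-07. Near Trp53, a second peak lay 44111.5 bp away and 183.5 bp from the TSS of Fxr2, a relative of the fragile X gene, with an IDR of 7.12e-05. Near Tgfb1, the Exosc5 promoter had a peak with an IDR of 3.45e-05, 81 bp from its TSS. Within Icam5, a peak with an IDR of 2.65e-06 lay 1388.5 bp from its TSS without an exact element. These genes were named after their values were seen.

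The 7 coding genes with 5 or more peaks within 1 kb of a TSS were Lmna, Camta1, Nab2, Pdgfb, Ptprs, Smarca2 and Psd. Nab2, which encodes a corepressor that binds EGR1, had 6 such peaks and the other 6 genes had 5 each. Within a span as short as that of the Pdgfb peaks, 5 peaks were found at 7 genes, namely Pdgfb, Nat8l, Tnrc18, Tet3, Stat6, Nab2 and Nemp1, of which neighbouring genes can share the same peaks.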
